A study of Homo sapiens with 6 samples.

Results

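The SOX genes described here are 10 transcription factor genes, taken by name: SOX1, SOX2 and SOX3 (subfamily SOXB1), SOX21 (SOXB2), SOX4, SOX11 and SOX12 (SOXC), SOX5 and SOX6 (SOXD) and SOX9 (SOXE). All 10 were found, of 57820 genes in the deposited count table, and all 10 passed the filter on low counts, as did 17803 genes in all. The RNA came from motor neurons differentiated from H9 cells, a widely used human embryonic stem cell line, and every library had the wild-type genotype (WT). Motor neuron progenitors of both groups had been grown in neural medium with retinoic acid (0.01 μM) and SAG (0.1 μM), an agonist of Hedgehog signalling. In the simulated microgravity group (SMG, 3 libraries) the cells were turned on a 2D clinostat, which keeps changing the direction of gravity relative to the culture. The normal gravity group (NG, 3 libraries) was the control. How long the cells were turned is not stated in the labels, and every library comes from the same cell line.

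SOX proteins bind DNA through a shared HMG domain that bends the helix, and they act with partner factors. In the developing spinal cord the SOXB1 factors keep neural progenitors in an undifferentiated, dividing state, and SOX21 counteracts them. SOXC factors come on as cells leave the cell cycle and drive neuronal genes in newborn neurons. SOXD factors lack a transactivation domain of their own and modulate other SOX proteins, and SOX9 marks progenitors and takes part in the onset of gliogenesis.

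Total counts ran from 16329907 to 22685870 per library, and each SOX gene had between 318 and 31158 counts in each library. Within a group, pairs of libraries varied beyond counting error, with a chi-square of 1.60 to 3.38 for each degree of freedom, highest in the pairs that included NG replicate 3. Separate cultures are not named in the labels. The p-values set the difference between the groups against the spread of libraries within them. That spread may be technical, so the p-values may not hold for new cultures. All 8 motor neuron markers were detected and tested, with summed levels of 583 to 616 CPM in NG and 692 to 720 CPM in SMG. CPM is a gene's count scaled to its library's total, after TMM scaling, which corrects for library size and composition. The neural progenitor gene list was also present, at 4286 to 4493 CPM in NG and 4307 to 4433 CPM in SMG. NES (means of 1999 CPM in NG and 2076 CPM in SMG) and VIM (1042 and 979 CPM) made most of that sum. SLC5A7 (311 and 353 CPM) was the largest part of the motor neuron sum. Each sum thus follows a few genes, and the sums do not compare cell numbers. In bulk RNA, a change in the number of cells of a type and a change in RNA per cell cannot be told apart.

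Per length, the most abundant of these genes were SOX4, SOX11 and SOX2, and the least abundant were SOX5 and SOX6. The scale here is CPM per kilobase of merged exons. In NG the order ran from SOX4 (145 ± 0.667, SD, n = 3) through SOX11 (135 ± 1.33), SOX2 (108 ± 2.36), SOX3 (53.9 ± 5.91), SOX9 (30.5 ± 1.89), SOX12 (23.4 ± 0.535), SOX21 (13.8 ± 1.03), SOX1 (13.7 ± 0.251) and SOX5 (4.74 ± 0.0318) to SOX6 (1.08 ± 0.0707). SOX21 and SOX1 were the only neighbours in this order whose libraries overlapped, in NG and in SMG alike. SOX4, SOX11 and SOX2 stood above 98.7% to 99.2% of all tested genes, and SOX6 above 26.4%. SOXB1 genes together made 33.1% ± 0.966 of the summed level of the 10 genes in NG and SOXC genes 57.4% ± 1.30. SOX9 made 5.77% ± 0.258, SOX21 2.60% ± 0.146 and the SOXD genes SOX5 and SOX6 1.10% ± 0.0304. SOX13, the other SOXD gene, was at 114 CPM in both groups, is not among the 10 and is left out of all SOXD shares.

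The order of the leading pair per length was exchanged between the groups. In SMG SOX11 was first, at 158 ± 1.27 CPM per kilobase, and SOX4 second, at 138 ± 1.68. The other 8 genes kept their places. Taking the longest transcript in place of merged exons changed no place in the NG order. That choice raised only the levels of SOX5 (to 7.10 in NG) and SOX6 (to 2.39), whose 22 and 17 annotated transcripts make the merged exons long.

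**Figure D1:**
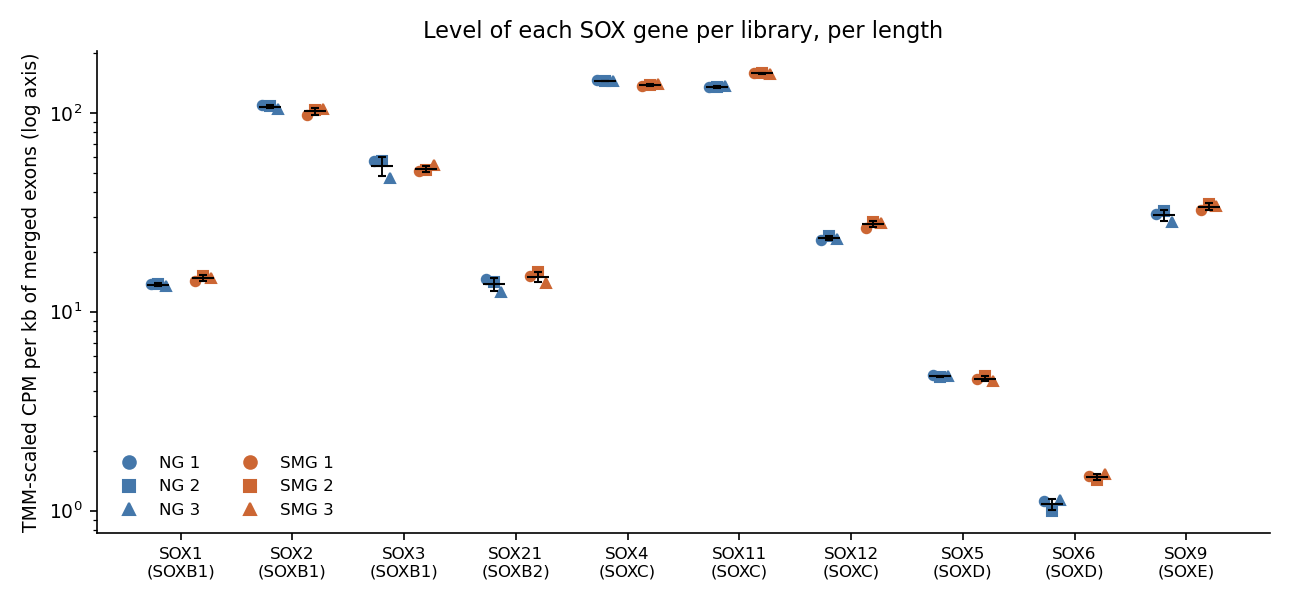
Level of each SOX gene in each library, as TMM-scaled CPM per kilobase of merged exons on a log axis, with NG in blue, SMG in orange, a marker for each replicate number, and black bars for the mean and SD of 3 libraries. SOX4 leads in NG (145 ± 0.667) and SOX11 in SMG (158 ± 1.27), while SOX6 is lowest in both groups.

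SMG was set against NG to ask how turning the cells on the clinostat relates to expression. SOX6, SOX12, SOX11 and SOX9 rose in SMG, by 1.37-fold, 1.18-fold, 1.17-fold and 1.11-fold. SOX1, SOX2, SOX3, SOX21, SOX4 and SOX5 did not pass. By edgeR's quasi-likelihood test with Benjamini-Hochberg adjustment over all tested genes and a threshold of 0.05, 4 of the 10 genes were thus higher and 0 lower. Over all tested genes 35.8% passed, 17.3% higher and 18.5% lower, so the 40.0% of SOX genes that passed lay near the background. The median log2 fold change of the 10 genes was 0.11, against -1.83e-04 over all tested genes, and 0 of the 10 reached 1.5-fold. At an unadjusted p under 0.05, edgeR had 5 of the 10 higher and 2 lower (SOX2 and SOX4). DESeq2 called 0 lower and limma-voom 1 (SOX4). The libraries of the groups did not overlap in 7 of the 10 genes, against 46.3% of all tested genes.

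Removing the length and GC trends together changed some of these calls, as did leaving out NG replicate 3 or SMG replicate 2. The parts of length and of GC were not tested apart. GC content of the longest transcript was above the median of tested genes (47.9%) for 7 of the 10, with SOX3 at 63.3%, SOX12 at 62.0% and SOX1 at 59.4%. A smooth trend fitted in each library over the length and GC content of transcripts put SOX12 at -0.16 and SOX3 at -0.14 on the log2 scale in NG replicate 3, and at 0.04 to 0.10 in the SMG libraries. With these trends removed, 3 of the 10 genes were higher (SOX6, SOX11 and SOX9) and 2 lower (SOX3 and SOX4), and the median of the 10 was 0.04 in place of 0.11. Without NG replicate 3, 4 were higher and 3 lower (SOX2, SOX3 and SOX4). Without SMG replicate 2, 3 were higher and 0 lower, and SOX9 did not pass. Values from these fits are given beside the genes they touch, and fold changes below are log2, SMG minus NG, ± SE.

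**Figure D2:**
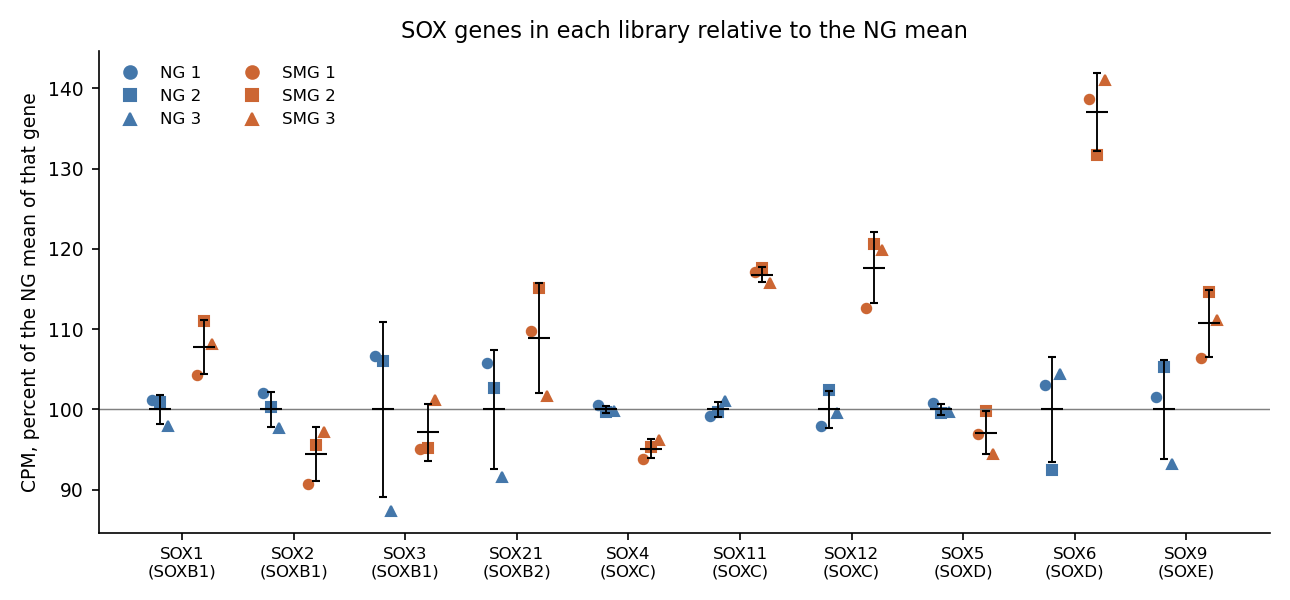
CPM of each SOX gene in each library as a percentage of that gene's NG mean, with NG in blue, SMG in orange, a marker for each replicate number, and black bars for the mean and SD of 3 libraries. All SMG libraries of SOX6, SOX11, SOX12 and SOX9 lie above all NG libraries, all SMG libraries of SOX2 and SOX4 lie below them, and NG replicate 3 is low for SOX3, SOX21 and SOX9.

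SOX2 (ENSG00000181449), the SOXB1 factor shared by neural and pluripotent stem cells, was the most abundant SOXB1 gene. It was at 276, 271 and 264 CPM in the NG libraries and at 245, 258 and 262 CPM in the SMG libraries. All SMG libraries were below all NG libraries, but NG replicate 3 and SMG replicate 3 were close. The fold change was -0.08 ± 0.03 with a 95% interval from -0.15 to -0.01, and it did not pass (edgeR adjusted p = 0.0599). SOX2 passed in 1 of 18 alternative fits, the one without NG replicate 3 (-0.10, edgeR adjusted p = 0.0153). With the trends removed it was at -0.07 (adjusted p = 0.0645).

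SOX3 (ENSG00000134595), the X-linked SOXB1 gene, was at 123, 122 and 100 CPM in NG and at 109, 109 and 116 CPM in SMG. The NG libraries lay on both sides of the SMG libraries, with NG replicate 3 the lowest of all 6. The fold change was -0.04 ± 0.07, with a 95% interval from -0.21 to 0.12 (edgeR adjusted p = 0.683). Its call differed between fits, passing in 3 of 18 alternatives. It was lower at -0.13 without NG replicate 3 (edgeR adjusted p = 0.00468) and at -0.17 ± 0.04 with the trends removed (adjusted p = 0.00259).

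SOX1 (ENSG00000182968), which among the SOXB1 genes is the one most restricted to neural cells, was the least abundant of them. It was at 39.4, 39.3 and 38.1 CPM in NG and at 40.6, 43.2 and 42.1 CPM in SMG. All SMG libraries were above all NG libraries, by a small margin. The fold change of 0.11 ± 0.05, with a 95% interval from 0.00356 to 0.21, did not pass (edgeR adjusted p = 0.101). Without the trends it was at 0.01 ± 0.05 (adjusted p = 0.857).

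The SOXB1 genes thus did not all lie on the same side of 0. The count ratio of SOX2 to SOX1 within a library, which no scaling between libraries affects, was 6.94 ± 0.0546 in NG and 6.08 ± 0.137 in SMG, without overlap. The 7 pairs within a subfamily were compared in this way after the data had been seen, each with a two-sided exact permutation test of the log2 ratio over the 6 libraries. With 3 libraries against 3 the smallest p is 0.1, which becomes 0.175 after adjustment over the 7 pairs, so no pair could pass. SOX2 to SOX1 reached that smallest p. Its log2 difference of -0.19 shrank to -0.08 with the trends removed. The ratios of SOX3 to SOX1 and of SOX3 to SOX2 overlapped between the groups (exact permutation p = 0.3 and p = 0.9).

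SOX21 (ENSG00000125285), a SOXB2 repressor that promotes neuronal differentiation against SOXB1 activity, was at 40.4, 39.2 and 35.0 CPM in NG. In SMG it was at 42.0, 44.0 and 38.8 CPM. The groups overlapped, since the lowest SMG library fell below the highest NG libraries. The fold change was 0.12 ± 0.06, with a 95% interval from -0.00163 to 0.24 (edgeR adjusted p = 0.119). SOX21 passed in 0 of 18 alternative fits.

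SOX11 (ENSG00000176887), a SOXC activator of neuronal genes in newborn neurons, had the highest counts of the 10 genes. It was at 1169, 1175 and 1192 CPM in NG and at 1380, 1386 and 1364 CPM in SMG. The SMG libraries lay far above the NG libraries relative to the spread within either group. SOX11 rose by 0.22 ± 0.03 (edgeR adjusted p = 1.10e-06). It passed in 18 of 18 alternative fits, at 0.19 to 0.24, and was at 0.19 ± 0.03 with the trends removed. Its single exon shares 74 of its 8719 bases with a second annotated gene on that strand.

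SOX4 (ENSG00000124766), the SOXC gene closest to SOX11 in its described roles, did not pass. It was at 851, 844 and 845 CPM in NG and at 795, 807 and 814 CPM in SMG. All SMG libraries were below all NG libraries, and the NG libraries were nearly equal. The fold change of -0.07 ± 0.03, with a 95% interval from -0.13 to -0.01, did not pass (edgeR adjusted p = 0.0640). SOX4 was called lower in 4 of 18 alternative fits and was negative in all 18. These were limma-voom (-0.07, adjusted p = 0.0261), the fit without NG replicate 3 (-0.07, edgeR adjusted p = 0.0427) and both fits with the trends removed (-0.12 ± 0.03, adjusted p = 3.24e-04 without the replicate block).

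SOX12 (ENSG00000177732), the SOXC factor described as the weaker activator of the 3, was at 106, 111 and 108 CPM in NG. In SMG it was at 122, 131 and 130 CPM, above every NG library. SOX12 rose by 0.24 ± 0.04 (edgeR adjusted p = 1.61e-05) and passed in 16 of 18 alternative fits. The exceptions were both fits with the trends removed, where it was at 0.08 ± 0.03 (adjusted p = 0.0840) or, with the replicate block, at 0.07 (adjusted p = 0.0882).

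The ratio of SOX11 to SOX4 counts gave the difference within SOXC that varied least between libraries. It was 1.37, 1.39 and 1.41 in the NG libraries and 1.74, 1.72 and 1.68 in the SMG libraries. The groups did not overlap, and the log2 ratio was 0.30 higher in SMG (0.31 with the trends removed, 0.29 to 0.31 without each library in turn). The exact permutation p was 0.1, the smallest possible. SOX12 to SOX4 was also without overlap, at 0.128 ± 0.00345 in NG and 0.158 ± 0.00432 in SMG, a log2 difference of 0.31 that was 0.20 with the trends removed. SOX12 to SOX11 overlapped, at 0.0920 ± 0.00222 and 0.0927 ± 0.00367 (exact permutation p = 0.9). Of the summed SOXC level per length, SOX4 held 47.7% ± 0.333 in NG and 42.6% ± 0.337 in SMG, and SOX11 held 44.6% ± 0.291 and 48.9% ± 0.522.

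**Figure D3:**
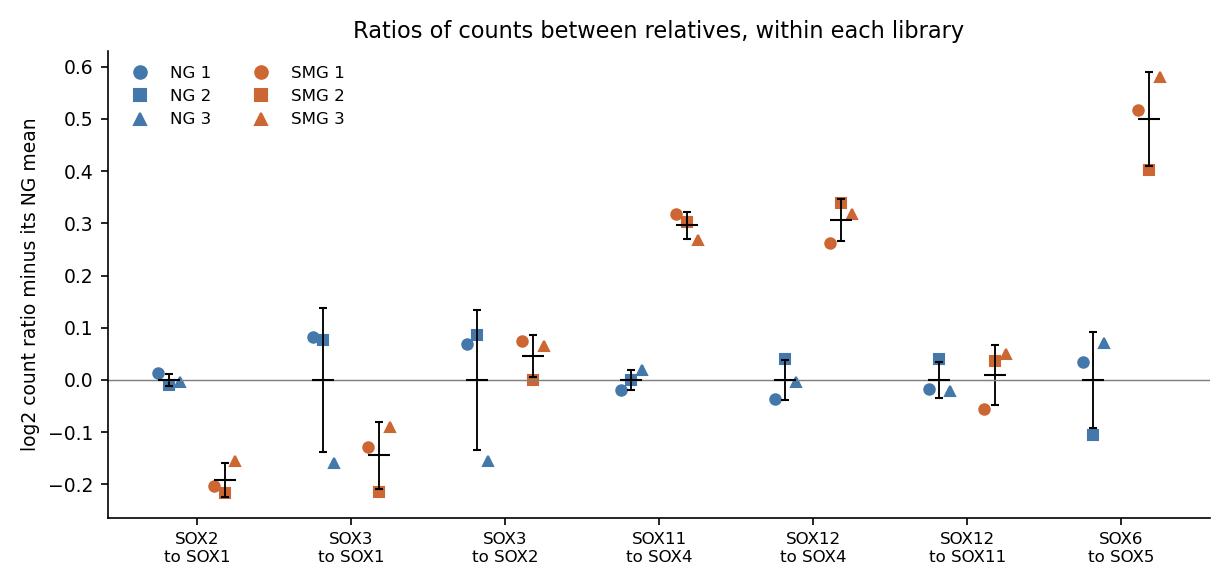
Log2 ratio of the counts of 2 genes of the same subfamily in each library, minus the mean of the NG libraries, with NG in blue, SMG in orange, a marker for each replicate number, and black bars for the mean and SD of 3 libraries. The ratios of SOX11 to SOX4, SOX12 to SOX4 and SOX6 to SOX5 are higher in every SMG library than in any NG library, by 0.30, 0.31 and 0.50 on average.

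The promoters of SOX4 and SOX12 are shown because the ratio of these SOXC genes differed between the groups while their windows differ in base composition. Whether the windows have a part in the difference between the groups was not tested. RefSeq promoter windows were found for 8 of the 10 genes (not for SOX11 and SOX9), on GRCh38.p14, a later build than the one named for the count table. Each printed window holds the 250 bases before the gene's start, 5′ to 3′ on the gene's strand. Capitals mark matches on either strand, and overlapping matches were all marked. The GC box was searched as GGGCGG. The TATA box was searched as TATAAA and the binding site of nuclear factor Y as CCAAT. The core of the hypoxia response was searched as ACGTG. One form of the SOX site was searched as AACAAT. The other form was ACAAAG. The windows lie at chr6:21593501-21593750 (SOX4, plus strand) and chr20:325302-325551 (SOX12, plus strand).
SOX4: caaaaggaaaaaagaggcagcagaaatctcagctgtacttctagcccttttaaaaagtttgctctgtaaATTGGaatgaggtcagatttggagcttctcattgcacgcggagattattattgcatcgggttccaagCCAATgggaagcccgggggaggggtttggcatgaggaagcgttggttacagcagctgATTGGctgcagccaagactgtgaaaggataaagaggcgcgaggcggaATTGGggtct
SOX12: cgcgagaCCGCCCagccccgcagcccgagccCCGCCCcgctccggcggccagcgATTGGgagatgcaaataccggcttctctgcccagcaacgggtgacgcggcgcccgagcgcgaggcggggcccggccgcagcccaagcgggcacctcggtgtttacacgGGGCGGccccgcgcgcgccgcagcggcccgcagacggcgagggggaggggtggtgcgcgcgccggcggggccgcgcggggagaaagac
The SOX4 window had 48.8% GC and 8 CG dinucleotides, with 4 CCAAT matches and 0 GC boxes. The SOX12 window had 79.2% GC and 42 CG dinucleotides, with 1 CCAAT match and 3 GC boxes. Among all 35116 windows of this length, the medians were 58.0% GC and 11 CG dinucleotides, 32.0% held a CCAAT match and 42.6% a GC box. A match describes these letters and no more.

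SOX6 (ENSG00000110693), a SOXD factor of progenitors and oligodendrocyte precursors, showed the largest change of the 10 genes. It was at 21.8, 19.6 and 22.1 CPM in NG and at 29.4, 27.9 and 29.9 CPM in SMG. Every SMG library was well above every NG library. SOX6 rose by 0.45 ± 0.06 (edgeR adjusted p = 1.74e-06), and it passed in 18 of 18 alternative fits at 0.40 to 0.48. With the trends removed it was at 0.47 ± 0.06. It was also the gene of the 10 with the fewest counts, 318 to 682 per library, and its exons overlap C11orf58 on the opposite strand by 219 bases of 19636. Whether the counting used strand is not stated in the labels.

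SOX5 (ENSG00000134532), the SOXD partner with which SOX6 can form dimers, did not pass. It was at 49.9, 49.3 and 49.4 CPM in NG and at 48.1, 49.4 and 46.8 CPM in SMG, with overlapping groups. The fold change was -0.04 ± 0.05, with a 95% interval from -0.14 to 0.05 (edgeR adjusted p = 0.521). The NG libraries had SOX6 to SOX5 count ratios of 0.437, 0.397 and 0.448, and the SMG libraries had 0.611, 0.564 and 0.638. The groups did not overlap, and the log2 ratio was 0.50 higher in SMG (0.47 with the trends removed, 0.45 to 0.55 without each library in turn; exact permutation p = 0.1, the smallest possible).

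The promoters of SOX5 and SOX6 are shown as those of the SOXD pair that differed. RefSeq lists 5 starts for SOX6, and gene counts do not tell which was used, so only the window of the start farthest upstream is printed. The windows lie on GRCh38.p14 at chr12:24562492-24562741 (SOX5, minus strand) and chr11:16738478-16738727 (SOX6, minus strand), with capitals as above.
SOX5: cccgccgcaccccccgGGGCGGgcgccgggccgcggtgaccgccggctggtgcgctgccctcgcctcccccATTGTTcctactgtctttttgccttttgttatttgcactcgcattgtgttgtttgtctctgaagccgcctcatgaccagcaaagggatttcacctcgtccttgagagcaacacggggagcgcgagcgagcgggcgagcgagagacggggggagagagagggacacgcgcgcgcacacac
SOX6: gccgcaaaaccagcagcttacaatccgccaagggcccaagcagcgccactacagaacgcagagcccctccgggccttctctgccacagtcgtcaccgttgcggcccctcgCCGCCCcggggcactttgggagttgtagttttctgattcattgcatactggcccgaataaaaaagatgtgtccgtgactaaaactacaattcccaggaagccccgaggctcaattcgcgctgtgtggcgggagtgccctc
The SOX5 window had 65.6% GC with 1 GC box and 1 match to AACAAT, which 9.0% of all windows held. The SOX6 window had 58.8% GC with 1 GC box and 0 matches to either SOX motif. Of the other 4 SOX6 windows, 3 held at least 1 match to a SOX motif, so the printed window does not stand for all SOX6 starts.

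SOX9 (ENSG00000125398), the SOXE factor of progenitors and glial precursors, was at 122, 126 and 112 CPM in NG. In SMG it was at 128, 138 and 133 CPM. The groups did not overlap, but the lowest SMG library was close to the highest NG library. SOX9 rose by 0.15 ± 0.04 (edgeR adjusted p = 0.00656). It passed in 17 of 18 alternative fits and did not pass without SMG replicate 2 (0.12, edgeR adjusted p = 0.0620). Without the trends it was at 0.13 ± 0.04 (adjusted p = 0.00714).

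**Figure D4:**
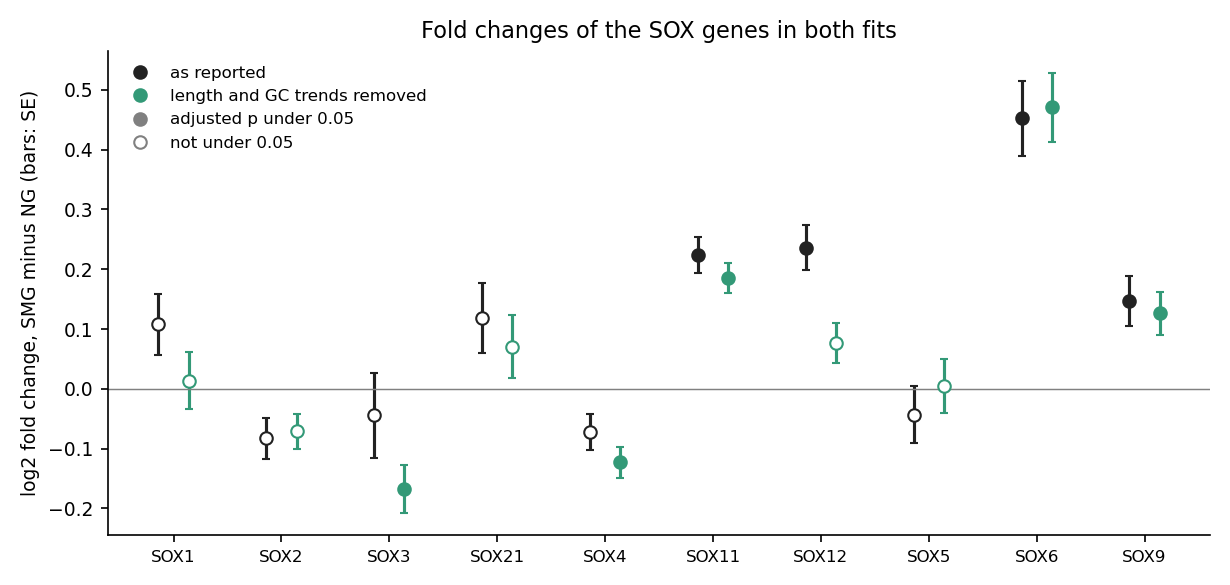
Log2 fold change (SMG minus NG) of each SOX gene with its SE, as reported (black) and after removal of each library's trends over length and GC (green), with filled points for an adjusted p under 0.05. SOX6, SOX11 and SOX9 pass in both fits, SOX12 only as reported, and SOX3 and SOX4 only with the trends removed.

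Between subfamilies, the summed SOXC level per length was higher in SMG relative to SOXB1. The summed SOXC level was 303 ± 0.995 CPM per kilobase in NG and 323 ± 2.39 in SMG, without overlap. The summed SOXB1 level was 175 ± 8.40 in NG and 169 ± 5.44 in SMG, with overlap. Their log2 ratio was 0.74, 0.76 and 0.88 in the NG libraries and 0.97, 0.94 and 0.90 in the SMG libraries. All SMG values were above all NG values, with NG replicate 3 and SMG replicate 3 nearly touching. The mean difference was 0.14, or 0.13 with the trends removed, and 0.12 to 0.19 without each library in turn. These sums are given without a test, and the genes within them did not all move together. In the SOXC sum, SOX11 went from 135 CPM per kilobase in NG to 158 in SMG and SOX12 from 23.4 to 27.6. SOX4 went the other way, from 145 to 138. The SOXB1 share of the summed level fell outside the NG range in every SMG library, at 30.9% ± 0.603, and SOX9 held 6.18% ± 0.152, also without overlap. The shares of SOXC (59.1% ± 0.495 in SMG), SOX21 and SOXD overlapped between the groups.

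Of the 9 other SOX genes looked up, 5 could be tested and 0 passed edgeR's test, in either direction. At an unadjusted p under 0.05 edgeR also had 0, as did DESeq2 and limma-voom after adjustment. SOX13, the other SOXD gene, had the highest counts of them, with NG at 114 ± 5.23 and SMG at 114 ± 2.63 CPM (-0.0016 ± 0.04). SOX8, a SOXE gene, was at 19.1 ± 1.17 and 17.3 ± 0.982 CPM (-0.14 ± 0.07, edgeR adjusted p = 0.136). With the trends removed both were lower, SOX13 at -0.10 (adjusted p = 0.0121) and SOX8 at -0.31 (adjusted p = 6.51e-04). SOX10, the SOXE gene of neural crest and oligodendrocytes, had 4 to 16 counts per library and was not tested.

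RNAs transcribed at SOX loci were looked at beside their neighbours. SOX9-AS1 fell from 4.005 ± 0.533 to 2.96 ± 0.165 CPM (-0.44 ± 0.14, edgeR adjusted p = 0.0176), while SOX9 rose. It passed in 12 of 17 alternative fits and did not pass with DESeq2 (adjusted p = 0.0958) or without NG replicate 1, NG replicate 3, SMG replicate 1 or SMG replicate 3, at -0.35 to -0.43. SOX2-OT, the long RNA within which SOX2 lies, had 130 ± 11.1 CPM in the NG libraries and 138 ± 2.27 CPM in the SMG libraries (0.08 ± 0.05, edgeR adjusted p = 0.155). With the trends removed SOX2-OT was higher, at 0.18 ± 0.03 (adjusted p = 1.81e-04). SOX21-AS1 was at 34.7 ± 1.10 and 33.5 ± 0.448 CPM (-0.05 ± 0.05, edgeR adjusted p = 0.524). In the annotation, the exons of these 3 RNAs overlap none of those of SOX9, SOX2 or SOX21.

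The gene lists around these factors held genes called in both directions, and their counts stand against 17.3% of all tested genes called higher and 18.5% lower. Of 16 neural progenitor genes, 6 fell and 2 rose, with a median of -0.0019. FABP7, a fatty acid binding protein of radial glia, fell from 36.0 ± 1.85 to 26.9 ± 0.955 CPM (-0.42 ± 0.06), and NEUROG2, a proneural factor of motor neuron progenitors, fell from 87.7 ± 2.58 to 72.3 ± 2.45 CPM (-0.28 ± 0.04). Among the 2 that rose, NOTCH1 changed most, from 225 ± 21.1 to 271 ± 3.02 CPM (0.26 ± 0.05). With the trends removed, 7 of these 16 were lower and 0 higher. With library size alone as the scaling 4 were lower and 4 higher. Of 18 newborn neuron genes, 6 rose and 3 fell, with a median of 0.06. Among the 3 that fell, NEUROD4 changed most, from 213 ± 11.2 to 184 ± 4.96 CPM (-0.21 ± 0.04). RBFOX3, the splicing regulator NeuN, rose from 10.8 ± 1.34 to 15.0 ± 0.847 CPM (0.47 ± 0.09), and MYT1L, a repressor of non-neuronal genes, from 8.51 ± 0.600 to 11.4 ± 0.661 CPM (0.42 ± 0.09). Of 10 proliferation genes, 5 fell and 1 rose, and their summed level was 1440 to 1492 CPM in NG and 1260 to 1277 CPM in SMG. TOP2A, the largest part of that sum, went from 558 ± 27.2 to 429 ± 7.89 CPM. MKI67, the next largest, did not pass (-0.06 ± 0.03, edgeR adjusted p = 0.184). Of the 8 motor neuron markers, 5 rose and 0 fell, with a median of 0.21, and with the trends removed 3 were higher and 0 lower, with a median of 0.08. The part of cell numbers in the SOX values was not tested.

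Markers of other cell types were also looked up. Of 9 astrocyte lineage markers 5 could be tested, and 2 rose and 2 fell. NFIB, a nuclear factor of the onset of gliogenesis, rose from 6.40 ± 0.163 to 10.2 ± 0.682 CPM (0.68 ± 0.10). Its relative NFIA, named after its values were seen, rose from 7.27 ± 0.351 to 9.44 ± 0.477 CPM (0.37 ± 0.10). SPARCL1, a secreted protein of astrocytes, fell from 75.0 ± 1.01 to 55.7 ± 2.62 CPM (-0.43 ± 0.05). SLC1A3, the other gene that fell, went from 44.3 ± 0.375 to 39.7 ± 1.59 CPM (-0.16 ± 0.05). FGFR3, the most abundant gene of the list, did not pass, at 169 ± 5.49 CPM in NG and 177 ± 2.12 CPM in SMG. The defining astrocyte genes GFAP and AQP4 had 1 to 6 counts per library. The oligodendrocyte precursor list had 0 higher and 1 lower of 5 tested, with summed levels of 358 to 372 CPM in NG and 337 to 348 CPM in SMG. Its defining gene PDGFRA had 5 to 14 counts per library. Neural crest markers summed to 2.40 to 3.17 CPM in NG and 1.62 to 2.41 CPM in SMG. Cartilage and mesenchyme markers summed to 87.5 to 94.1 CPM in NG and 84.9 to 90.4 CPM in SMG, with 0 higher and 1 lower of 5 tested. COL2A1 made most of that sum, at 77.2 ± 2.93 CPM in NG and 75.0 ± 2.86 CPM in SMG. ACAN had 0 to 7 and COL3A1 0 to 9 counts per library. Of the spinal interneuron markers 7 were tested, with 2 higher and 1 lower, and of the floor plate and ependymal markers 3, with 0 called. Of the pluripotent stem cell markers 2 were tested, with 1 lower. The pluripotent list summed to 83.5 to 89.5 CPM in NG and 74.1 to 81.1 CPM in SMG, without overlap. LIN28A, the gene called lower, made most of that sum, with 888 to 1228 counts per library (-0.17 ± 0.05, edgeR adjusted p = 0.0127). The defining genes POU5F1 and NANOG of that list had only 1 to 3 and 0 to 4 counts per library. Of the endothelial markers 4 were tested, with 0 higher and 2 lower. The endothelial list summed to 11.6 to 15.2 CPM in NG and 10.3 to 11.3 CPM in SMG, without overlap. TIE1 made most of that sum, at 9.55 ± 1.79 CPM in NG and 7.47 ± 0.811 CPM in SMG, with overlapping groups. The defining endothelial gene CDH5 had 1 to 2 counts per library.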

How the data were processed

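RNA was sequenced from 6 libraries, 3 NG and 3 SMG. The deposited table holds raw counts per Ensembl gene, as whole numbers, which the authors had computed. Per the submitters' processing notes, the tools were HISAT2, SAMtools, featureCounts and DESeq2, and the build was hg19. Their versions, the annotation, the strand setting and the handling of multimapping reads are not given in the labels. Symbols were found for 52338 of 57820 genes in a table of gene names and GENCODE 29, which also gave lengths, GC content and exon overlaps and is on another build.

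Genes were filtered with edgeR's filterByExpr (17803 left), scaled by TMM and tested with glmQLFit (robust) and glmQLFTest, with Benjamini-Hochberg adjustment. Alternatives were DESeq2, limma-voom, other scalings and filters, protein-coding genes alone, the replicate number as a block, leaving out each library, and offsets from natural splines of transcript length and GC content (4 degrees of freedom each, 17193 genes). Genes of 10 CPM or more had log2 fold changes with a median SE of 0.0524. The edgeR script was tested on counts simulated with known changes. With dispersions drawn from edgeR's trend, the share of false calls stayed under the threshold of 0.05. With gene-wise dispersions, which were simulated first, that share was above 0.05 and missed the limit set for it. Adjusted p-values, above all those near the threshold, may thus be too small, and the counts of genes called too high. Nearly all changes of 2-fold or more were recovered in both tests, and smaller ones, the size seen in the SOX genes, less often.

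The 10 genes and the lists were chosen with earlier results of these data known, and the pair ratios were added after the data had been seen. All 10 genes are named. Any tested gene of the other SOX genes and of the RNAs at SOX loci could be named, and from each other list up to 2 genes that passed with the largest change and a mean of at least 2 CPM. Exceptions, named after their values were seen, are NFIA and SLC1A3, the remaining astrocyte lineage genes that passed, and genes of low counts. Further exceptions are NOTCH1 and NEUROD4, named as the largest changes in the other direction of their lists. COL2A1, TOP2A, FGFR3, NES, VIM and SLC5A7 were named for their part in a sum, and MKI67 as a gene that did not pass. SOX6-AS1 matched no gene. The software was R (4.3.3) with edgeR (4.0.16), limma (3.58.1) and, as an alternative, DESeq2 (1.42.0).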

Additional observations from a re-analysis of the deposited data

How the results depend on the processing

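SOX11 and SOX6 kept their direction and their call in all 18 alternative fits, SOX9 in 17 and SOX12 in 16. The number of SOX genes called lower, 0 as reported, was 1 with limma-voom, 2 with the length and GC trends removed, 2 with those trends removed together with the replicate block, and 0 to 3 without each library in turn (3 without NG replicate 3). The cause was not tested. The SOXD share of the summed level differed between SMG and NG by 0.0113 percentage points as reported, by 0.0594 without division by length, by 0.0631 with the longest transcript and by 0.0780 with the trends removed, and by -0.0038 to 0.0267 without each library. Same-numbered libraries did not deviate together (correlations of -0.0571, 0.0522 and -0.0538, and 0 of 6 libraries correlated best with their own number). With the replicate block, 4 SOX genes were higher and 0 lower, and over all genes 3077 were higher and 3256 lower, against 3080 and 3296 without it. DESeq2 gave 2273 and 2375. Leaving out SMG replicate 2 took SOX9 across the threshold, and leaving out NG replicate 3 took SOX2, SOX3 and SOX4 across it.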
